A study of Mus musculus with 7 samples.

Results

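Skeletal muscle keeps its own stem cells, the satellite cells, and these are recognised in the laboratory by a set of surface receptors and adhesion proteins. The 10 genes described here were chosen by name from that set: Itga7, Cdh15, Vcam1, Ncam1, Met, Fgfr4, Megf10, Cxcr4, Calcr and Des. Itga7, Cdh15, Vcam1 and Ncam1 encode adhesion proteins, and the next 5 encode receptors at the cell surface. Des is the exception in place, since desmin is an intermediate filament inside the cell, used as an early marker of the muscle lineage. Every probe that carried one of these names in the array files was taken, which gave 14 probes on 32 spots among the 55681 non-control probes of the array. A probe counted as measured on an array where the scanner software called at least 0.5 of its spots well above background, and a gene was tested if its probe was measured on at least 3 of the 7 arrays. By this rule 8 of the 10 genes were among the 19760 genes tested, while Cxcr4 and Calcr were not.

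The series profiled total RNA of 7 mouse cell populations on single-colour Agilent arrays, 1 array per population, and asked where skin cells able to form muscle come from. The Sdc4+ group comprised Myf5SOR+ cells, whose line (B6.129S4-Myf5tm3(cre)Sor/J) expresses Cre from the myogenic gene Myf5, Cspg4- cells, from a line that carries a Cspg4-cre transgene (B6,FVB-Tg(Cspg4-cre)1Akik/J), and cells of outbred CD1 mice (Crl:CD1(ICR)), 3 arrays in all. The Sdc4- group also held 3: B195AP+ cells (B195AP-Cre, with a driver that the labels do not name), Cspg4- cells of the same Cspg4-cre line, and CD1 cells. The remaining array held Cspg4+ cells of the Cspg4-cre line, with no Sdc4 label. The labels give 8 to 10 animals per phenotype, so each array stood for pooled animals, and they give no age, tissue or sorting method. A Cre driver, used with a reporter gene, can mark the descendants of a cell that once used it. The labels do not say whether the population names describe such history or present expression.

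As background, satellite cells lie between the muscle fibre and its basement membrane. Integrin alpha 7 binds laminin of that membrane, M-cadherin (Cdh15) joins the cell to the fibre, and VCAM1 binds the integrin alpha 4 beta 1 on other cells. The receptors MET, for hepatocyte growth factor, and FGFR4, for fibroblast growth factors, carry growth and migration signals, CXCR4 reads the chemokine CXCL12, and the calcitonin receptor is known from quiescent cells.

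Levels are given as log2 of the processed fluorescence intensity minus the 75th percentile of the non-control spots of the same array, so that 0 is that percentile. They compare populations for 1 probe and not 1 gene with another. Between 45.9% and 50.8% of the spots were well above background on 6 arrays and 57.2% on the Cspg4+ array. All 3 Sdc4+ arrays were in row 1 of the slide and the other 4 in row 2, so the row and the label of the Sdc4 groups cannot be told apart. One corner of the B195AP+ array was streaked and held the spot of Cdh15, Cxcr4, Megf10 and both Fgfr4 probes, 6 of the 10 Des spots and 3 of the 10 Met spots. Sdc4 itself lay between 3.79 and 6.35 on the Sdc4+ arrays and between 1.88 and 5.27 on the Sdc4- arrays, and its groups overlapped. Within the Cspg4-cre line it was higher by 1.18 and within CD1 by 1.07 in the population labelled Sdc4+.

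Pax7, Pax3 and Myf5, the transcription factors that define satellite cells and their precursors, reached that call on 0 of 7. The next regulator in the pathway, Myod1, reached it on CD1 Sdc4- alone. Myog, the myogenin of differentiating cells, was measured on 5 arrays. The 10 genes are thus described as known satellite cell markers, in populations in which the defining regulators were not measured above background.

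In the comparison of Sdc4+ with Sdc4- cells none of the 8 tested markers passed the test, and neither did any other gene. limma called 0 of 8 markers and 0 of 19760 genes (0%) at an adjusted p under 0.05, and 1814 genes (9.18%) had an unadjusted p under 0.05. Des and Cdh15 were among them, both on the lower side, where 5.38% of genes were. The adjusted p of the 8 markers in limma lay between 0.47 and 0.964. The mean was lower in Sdc4+ cells for 6 of the 8 and higher for 2, with a median difference of -0.69 against -0.03 over all tested genes. The 3 arrays of each group did not overlap for 3 markers, Cdh15, Des and Ncam1, all lower in Sdc4+ cells, where 16.5% of all tested genes had groups without overlap 9.26% on the lower and 7.2% on the higher side. Without the B195AP+ array 5 markers had no overlap (Vcam1 and Megf10 joined them, higher in Sdc4+ cells), against 24.7% of genes. In such bulk samples fewer cells that use a gene and less RNA per cell cannot be told apart. Only 1 array stood for each population and the labels name no separate cultures, so each p-value reflects only how arrays of different lines spread.

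**Figure D1:**
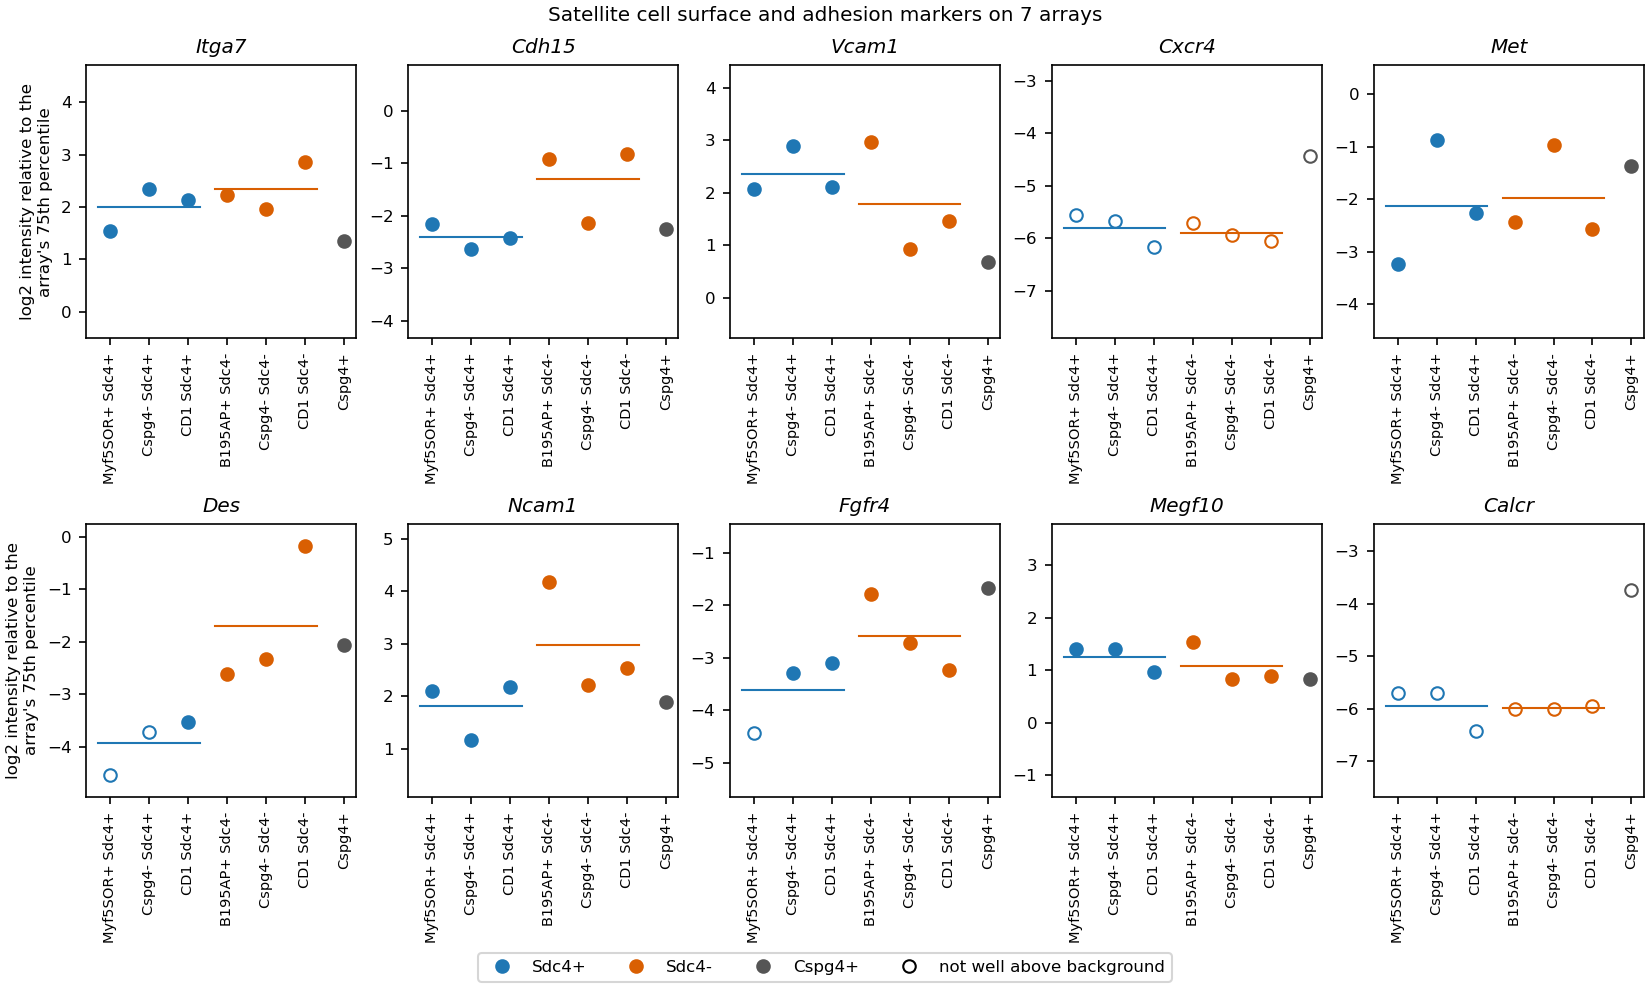
Level of each of the 10 markers (y axis, log2 intensity relative to the array's 75th percentile) in the 7 populations (x axis), with 1 point per array, open where the probe was not well above background, and a line at each Sdc4 group mean. All panels span the same number of log2 units. Des runs from -4.54 to -0.18, Megf10 from 0.83 to 1.54, and Cxcr4 and Calcr are open on all 7 arrays.

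Desmin showed the widest range of the markers. Its probe covers the end of the coding sequence and is shown because it carries the largest difference of the set. It starts at base 1428 of the transcript NM_010043, and its 60 bases lie within the 226 bases of chr1:75363404-75363629 (mm9, plus strand), so they are not contiguous in the genome. The stop codon is in capitals, with its first base at position 54 counted from the 5′ end.
Des probe A_51_P335969: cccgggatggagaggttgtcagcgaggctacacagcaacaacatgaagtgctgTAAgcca

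The Des level was -4.54 in Myf5SOR+ Sdc4+, -3.72 in Cspg4- Sdc4+ and -3.53 in CD1 Sdc4+ cells. In the Sdc4- group it was -2.62 in B195AP+, -2.33 in Cspg4- and -0.18 in CD1 cells, and it was -2.07 in Cspg4+ cells. All 3 Sdc4+ arrays lay below the other 4, and CD1 Sdc4- stood highest. The Sdc4+ mean was -3.93 ± 0.53 and the Sdc4- mean -1.71 ± 1.33 (SD, n = 3 each). The difference was -2.22 (SE 0.67, 95% interval -3.82 to -0.62), a 4.65-fold lower mean in Sdc4+ cells, with an adjusted p of 0.47 in limma. The probe was measured on 1 of the 3 Sdc4+ arrays, CD1, and on all 4 others, so the Sdc4+ values lie near the floor of detection. Without CD1 Sdc4- cells the difference was -1.45, and with normexp background correction, whose offset of 50 compresses dim probes, -0.64.

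The 10 spots of the Des probe give the only direct view of measurement error beside those of Met. Their median intensity was 5.36 in Myf5SOR+ Sdc4+, 9.65 in Cspg4- Sdc4+ and 21.6 in CD1 Sdc4+ cells, with 0, 2 and 9 spots well above background. It was 28.0 in B195AP+, 35.4 in Cspg4- Sdc4-, 42.0 in Cspg4+ and 186 in CD1 Sdc4- cells, where every spot not marked as an outlier was well above background. After scaling, with spots marked as outliers left out, the spots of CD1 Sdc4+ ended at -3.18 and those of B195AP+ began at -2.85. The remaining spots of the Sdc4+ arrays did not reach those of the other 4. The 2 B195AP+ spots left out read 10.6 and 5.1 before scaling, within the 3.15 to 26.8 of the Sdc4+ spots. The gap thus holds only without them. The spots of CD1 Sdc4-, from -0.28 to -0.07, lay above all others. Neighbours overlapped among the 3 Sdc4+ arrays, between B195AP+ and Cspg4- Sdc4-, and between Cspg4- Sdc4- and Cspg4+. Without the outlier spots, the SD between spots was 0.60 on the Myf5SOR+ array and 0.06 to 0.32 on the other 6. The arrays were set apart by these same spots, so the SD between spots cannot test those gaps. Spots of 1 array are repeat readings and not replicates of a population.

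**Figure D2:**
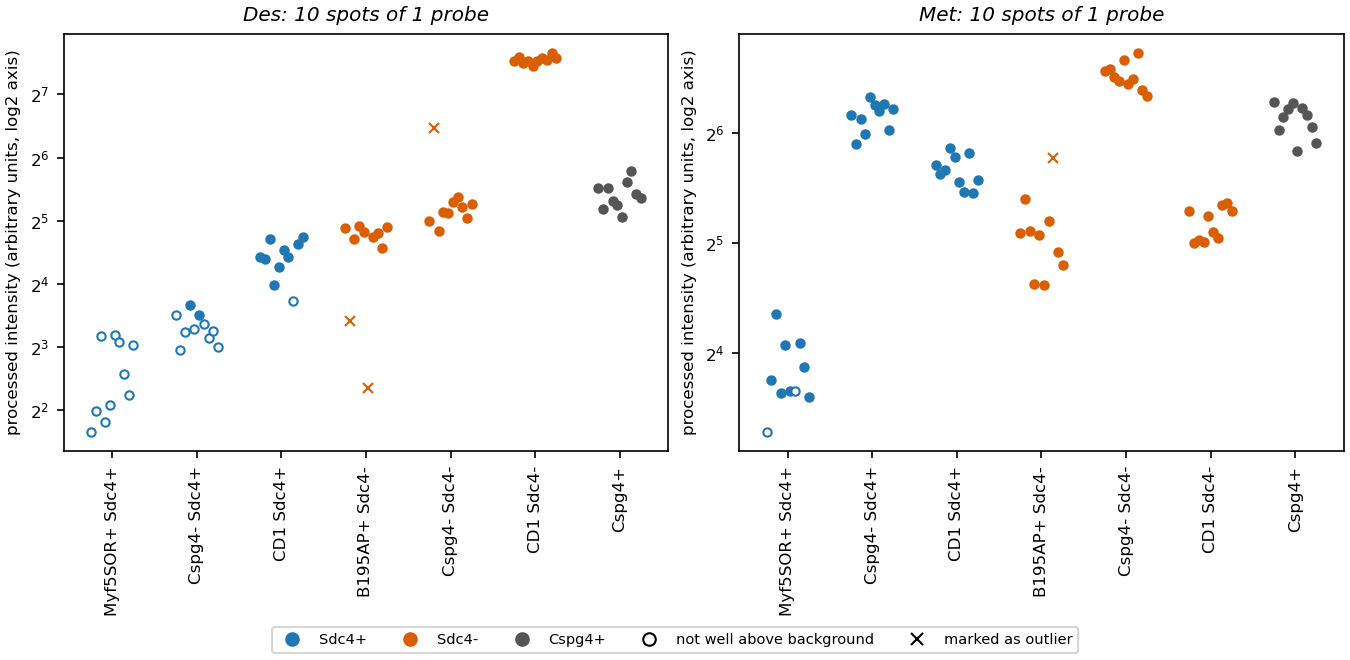
Processed intensity (y axis, log2 scale, arbitrary units, before scaling between arrays) of the 10 spots of the Des probe and the 10 spots of the Met probe in each population (x axis), with open points not well above background and crosses marked as outliers by the scanner software. The Des spots of CD1 Sdc4- lie around 186, and the Met spots are highest in the 2 Cspg4- populations and Cspg4+ cells.

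Genes of differentiating muscle cells were read beside Des. Of 14 such genes, 12 were tested, and all 12 had the lower mean in Sdc4+ cells with a median difference of -3.38. Groups did not overlap for 10, all lower, where 9.26% of all tested genes were. The rule of 3 measured arrays admits genes measured in the Sdc4- group alone, and the 4 genes measured on all 7 arrays had a median of -1.68, all 4 lower. limma called 0 of the 12, and 10 had an unadjusted p under 0.05, all lower, where 5.38% of all tested genes were. All 12 stayed lower under each of the background and scaling alternatives, with a median of -1.31 under normexp. Myh3, the embryonic myosin heavy chain, ran from -5.76 to -3.11 on the Sdc4+ arrays and from 1.13 to 3.79 on the Sdc4- arrays. Its groups were far apart, although its probe was measured on 1 of the 3 Sdc4+ arrays, and limma gave an adjusted p of 0.429. Ttn, the giant sarcomere spring titin, was not measured on any Sdc4+ array and was at least 7.30-fold lower there (limma adjusted p 0.429), with the floor taken as the lowest signal well above background on each array. Myog differed by -3.17 (limma adjusted p 0.469), with the highest level, 0.42, in CD1 Sdc4- cells.

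The summed level of the 14 genes, on a linear scale where 1 is the 75th percentile, was 5.75 in Myf5SOR+ Sdc4+, 12.7 in Cspg4- Sdc4+ and 12.4 in CD1 Sdc4+ cells. It was 16.4 in B195AP+, 34.9 in Cspg4- Sdc4-, 15.7 in Cspg4+ and 98.8 in CD1 Sdc4- cells. The number of the 14 measured ran from 5 to 10 on the Sdc4+ arrays and from 11 to 13 on the Sdc4- arrays. Like Des, the sum had its highest value in CD1 Sdc4- and its lowest in Myf5SOR+ Sdc4+ cells. The Cspg4+ array did not follow, since Des was second highest there, while the sum was below those of B195AP+ and Cspg4- Sdc4- cells, and Ttn and Myog were not well above background. The part of differentiating cells in the Des difference was not tested. Other genes of intermediate filaments and of proteins associated with them gave no common direction. Of the 6 tested, 2 were higher and 4 lower, with a median of -0.07 and none called by limma. Cryab, the small heat shock protein that protects desmin filaments, differed by 0.88 with overlapping groups (limma adjusted p 0.54), and Nes, nestin of progenitor cells, by -1.06 (limma adjusted p 0.669).

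M-cadherin, the product of Cdh15, gave the next smallest p. Its level was -2.16 in Myf5SOR+ Sdc4+, -2.63 in Cspg4- Sdc4+ and -2.42 in CD1 Sdc4+ cells. In the Sdc4- group it was -0.92 in B195AP+, -2.13 in Cspg4- and -0.83 in CD1 cells, and it was -2.24 in Cspg4+ cells. B195AP+ and CD1 Sdc4- stood well above the other 5 arrays, and Cspg4- Sdc4- cells were only just above the highest Sdc4+ array. The difference between group means was -1.11 (SE 0.38, 95% interval -2.02 to -0.20), 2.16-fold lower in Sdc4+ cells, with an adjusted p of 0.499 in limma. With the streaked corner left out, and the B195AP+ spot with it, the difference was -0.93. With normexp it was -0.52, and the groups then overlapped, as they did after quantile normalization and in the deposited series table.

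The other classical cadherins and the catenins that tie them to actin did not share this. Of 12 listed, 8 were tested, 7 had the higher mean in Sdc4+ cells and 1 the lower, 0 had an unadjusted p under 0.05, limma called 0, and the median was 0.10. The exception was Cdh2, N-cadherin, which satellite cells also carry. It differed by -0.58 with overlapping groups (limma adjusted p 0.635). Ctnnb1, beta-catenin, differed by 0.27 (limma adjusted p 0.698).

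The sequences before the starts of Des and Cdh15 are shown because these 2 markers had the smallest p-values and gave a Pearson r of 0.67 across the 7 arrays (0.82 without B195AP+), a description over arrays that share their scaling. They are the 250 bases before the RefSeq start in GRCm38.p6, for Des chr1:75360042-75360291 and for Cdh15 chr8:122848124-122848373, both on the plus strand. Capitals mark CANNTG, the E-box letters recognised by myogenic regulators such as MyoD and myogenin, which read the same on both strands. Of the 10 markers, 6 had an entry in the promoter table.
Des promoter: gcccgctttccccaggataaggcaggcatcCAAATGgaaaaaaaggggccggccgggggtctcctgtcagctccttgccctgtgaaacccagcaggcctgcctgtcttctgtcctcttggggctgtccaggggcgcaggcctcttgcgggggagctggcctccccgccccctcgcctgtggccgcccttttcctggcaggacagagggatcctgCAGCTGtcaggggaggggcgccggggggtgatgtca
Cdh15 promoter: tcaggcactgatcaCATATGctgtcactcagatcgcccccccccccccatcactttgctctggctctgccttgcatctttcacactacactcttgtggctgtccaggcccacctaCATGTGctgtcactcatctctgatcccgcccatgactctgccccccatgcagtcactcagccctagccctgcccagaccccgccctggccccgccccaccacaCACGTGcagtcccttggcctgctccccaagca

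The Des window held 2 E-boxes and the Cdh15 window 3, where 66.2% of 32851 RefSeq promoter windows held at least 1. The form CAGCTG, itself a CANNTG, stood once before Des, with its first base 36 bases before the start, and was not found before Cdh15. It occurred in 13.0% of the promoter windows. Such a match describes the letters and is not a binding site.

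Ncam1, the neural cell adhesion molecule found on satellite cells, nerve and Schwann cells, was read by 3 probes. The one used in the test, A_51_P380309, was 2.09 in Myf5SOR+ Sdc4+, 1.17 in Cspg4- Sdc4+ and 2.17 in CD1 Sdc4+ cells. It was 4.18 in B195AP+, 2.21 in Cspg4- Sdc4-, 2.53 in CD1 Sdc4- and 1.89 in Cspg4+ cells. B195AP+ cells stood far above the other 6 arrays, and the rest of the Sdc4- group was barely above the Sdc4+ group. The difference was -1.16 (SE 0.56, 95% interval -2.51 to 0.18), 2.24-fold lower in Sdc4+ cells, with an adjusted p of 0.591 in limma. Without the B195AP+ array it was -0.56. That spot lay outside the streaked corner.

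The coding probe of Ncam1 is shown because the files assign it to all 3 Ncam1 transcripts they list, while the other probes belong to some of them. It starts at base 2012 of NM_010875 and lies at chr9:49351182-49351241 (mm9, minus strand).
Ncam1 probe A_55_P2028942: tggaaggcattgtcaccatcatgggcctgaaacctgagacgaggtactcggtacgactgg

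This probe followed the tested one closely, with a Pearson r of 0.995 over the 7 arrays. It was 0.48 in B195AP+ cells and between -1.82 and -0.77 on the other 6. The files assign the third probe, A_55_P2050602, to NM_010875 alone, and its r with the tested probe was 0.58. It lay between -3.50 and -3.05 on the Sdc4+ arrays, with only CD1 Sdc4+ measured, and at -2.03 in B195AP+, -2.23 in Cspg4- Sdc4-, -1.77 in CD1 Sdc4- and -2.23 in Cspg4+ cells. All 3 probes had Sdc4+ arrays below every Sdc4- array, and the high B195AP+ level was seen with 2 of the 3. Markers of Schwann and neural crest cells were also high in B195AP+ cells: 5 of 8 were measured and their summed level was 27.8, against 1.82 to 5.05 on the other 6 arrays, where 3 to 6 were measured. Sox10 and Erbb3, defining genes of that list, were not well above background in B195AP+ cells. The part of such cells in the Ncam1 level was not tested.

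**Figure D3:**
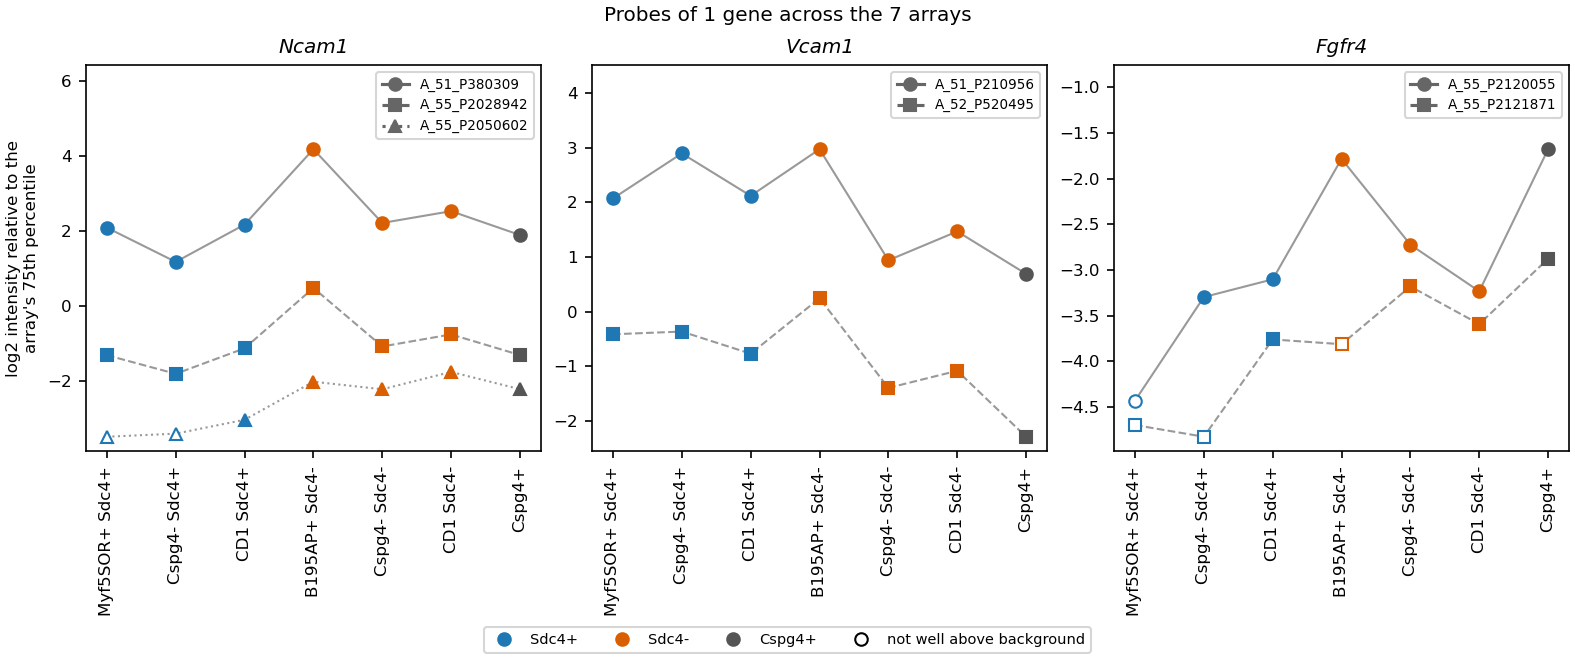
Levels (y axis, log2 intensity relative to the array's 75th percentile) of the 3 Ncam1, 2 Vcam1 and 2 Fgfr4 probes in the 7 populations (x axis), 1 point per array, open where not well above background, with lines joining the points of 1 probe. B195AP+ is the highest array for 2 Ncam1 probes and both Vcam1 probes, and the Fgfr4 probes part there.

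Vcam1 was one of the 2 markers with the higher mean in Sdc4+ cells, with overlapping groups. Its tested probe was 2.07 in Myf5SOR+, 2.90 in Cspg4- and 2.12 in CD1 cells of the Sdc4+ group. In the Sdc4- group it was 2.97 in B195AP+, 0.94 in Cspg4- and 1.47 in CD1 cells, and it was 0.69 in Cspg4+ cells. B195AP+ cells joined the Sdc4+ arrays at the high end, while the other 2 Sdc4- arrays and Cspg4+ cells were low. The difference was 0.57 (SE 0.54, 95% interval -0.73 to 1.87), with an adjusted p of 0.767 in limma, and it was 1.16 without the B195AP+ array, 0.30 without Cspg4- Sdc4+ and 0.14 without Cspg4- Sdc4- cells. Neither Vcam1 probe had its spot in the streaked corner.

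The second Vcam1 probe reads the coding sequence and is shown as a second probe on the same RNA. It starts at base 842 of NM_011693 and lies at chr3:115828953-115829012 (mm9, minus strand).
Vcam1 probe A_52_P520495: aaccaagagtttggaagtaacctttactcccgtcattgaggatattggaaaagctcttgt

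It gave -0.41, -0.36 and -0.77 in Myf5SOR+, Cspg4- and CD1 cells of the Sdc4+ group. B195AP+ was again highest at 0.25 and Cspg4+ lowest at -2.29, with Cspg4- Sdc4- at -1.40 and CD1 Sdc4- at -1.08. The 2 probes had an r of 0.93 and gave the same highest and lowest population.

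Integrin alpha 7 was measured on all 7 arrays, and its highest level was 2.82-fold its lowest. It was 1.54 in Myf5SOR+, 2.34 in Cspg4- and 2.13 in CD1 cells of the Sdc4+ group, and 2.24 in B195AP+, 1.95 in Cspg4- and 2.85 in CD1 cells of the Sdc4- group. Cspg4+ cells had 1.35. CD1 Sdc4- stood highest and the groups overlapped. The difference was -0.34 (SE 0.32, 95% interval -1.11 to 0.42), with an adjusted p of 0.759 in limma, and it was -0.114 without Myf5SOR+, -0.511 and -0.541 without the Sdc4+ or Sdc4- cells of the Cspg4-cre line, and -0.0925 without CD1 Sdc4- cells. The probe lies at chr10:128395274-128395333 (mm9, plus strand).

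Among 19 tested integrins and basement membrane genes 8 had the higher and 11 the lower mean in Sdc4+ cells, with a median of -0.22 and none called by limma. Itga5, the fibronectin receptor, lay between 4.14 and 4.99 on the Sdc4+ arrays and between 3.46 and 3.73 on the Sdc4- arrays, a difference of 0.95 without overlap (limma adjusted p 0.467). Itga2, a collagen receptor, differed by -1.12, also without overlap (limma adjusted p 0.47). The partners of the immunoglobulin adhesion proteins numbered 9 tested genes, 7 of them higher, with a median of 0.19 and none called by limma. Chl1, a relative of L1, differed by 1.69 and Cadm1, an adhesion protein that binds its own kind, by 0.90, both without overlap (limma adjusted p 0.514 and 0.509).

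Met set the populations of the Cspg4-cre line apart from the others and did not divide them by the Sdc4 label. Its coding probe, spotted 10 times, is shown because its spots, with the outlier left out, kept that line apart. It starts at base 3437 of NM_008591 and lies at chr6:17503299-17503358 (mm9, plus strand).
Met probe A_51_P103929: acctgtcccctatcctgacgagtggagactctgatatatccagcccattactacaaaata

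The Met level was -0.86 in Cspg4- Sdc4+, -0.96 in Cspg4- Sdc4- and -1.36 in Cspg4+ cells, the 3 populations of the Cspg4-cre line. It was -2.27 in CD1 Sdc4+, -2.43 in B195AP+, -2.56 in CD1 Sdc4- and -3.23 in Myf5SOR+ cells. The spots of the 3 Cspg4-cre arrays, from -1.64 upwards, lay above those of the other 4, which ended at -2.01. Here 1 B195AP+ spot marked as an outlier was left out. Its intensity was 54.7, against 57.1 for the dimmest Cspg4+ spot. The spots of the 2 Cspg4- populations overlapped each other and lay above those of Cspg4+ cells. Among the other 4 arrays the spots of neighbours overlapped. With 3 arrays of 1 line against 4 arrays of 3 others, all chosen after their values were seen, this order is a description with no test.

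The Sdc4 difference of Met was -0.14 (SE 0.69), with overlapping groups and an adjusted p of 0.964 in limma. It was positive in 7 of 22 alternative analyses, so no direction can be given. Within the Cspg4-cre line Sdc4+ cells were higher by 0.10 and within CD1 by 0.29. CD1 minus the Cspg4-cre line was -1.41 among Sdc4+ cells and -1.60 among Sdc4- cells. Of 8 tested genes of the HGF and Met axis 7 had the higher mean in Sdc4+ cells and 1 the lower, with a median of 0.23 and none called by limma. Spint2, an inhibitor of the proteases that activate HGF, differed by -0.35 without overlap (limma adjusted p 0.614), and Mst1r, a receptor related to MET, by 0.33 (limma adjusted p 0.668).

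Fgfr4 was dim, and its 2 probes parted. The tested probe, A_55_P2120055, was not well above background in Myf5SOR+ cells at -4.43, and was -3.30 in Cspg4- Sdc4+ and -3.10 in CD1 Sdc4+ cells. It was -1.78 in B195AP+, -2.72 in Cspg4- Sdc4-, -3.23 in CD1 Sdc4- and -1.68 in Cspg4+ cells. Cspg4+ and B195AP+ cells were highest, and the Sdc4 groups overlapped. The difference was -1.03 (SE 0.49), 2.04-fold lower in Sdc4+ cells, with an adjusted p of 0.585 in limma. Leaving out the streaked corner, which held both Fgfr4 spots of B195AP+, gave -0.63, as did leaving out that whole array, and without Myf5SOR+ cells it was -0.62. With normexp it was -0.14.

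The second Fgfr4 probe, from the coding sequence, is shown because it did not repeat the B195AP+ level. It starts at base 2351 of NM_008011 and lies at chr13:55269212-55269271 (mm9, plus strand).
Fgfr4 probe A_55_P2121871: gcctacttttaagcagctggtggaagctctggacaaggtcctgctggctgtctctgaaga

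It was measured on 4 arrays: -3.76 in CD1 Sdc4+, -3.18 in Cspg4- Sdc4-, -3.59 in CD1 Sdc4- and -2.88 in Cspg4+ cells. On the B195AP+ array it read -3.81 and was not well above background. Both probes had Cspg4+ cells highest and Myf5SOR+ cells among the lowest 2, and their r over the 7 arrays was 0.71. Of 14 tested genes of the FGF axis 8 had the higher and 6 the lower mean in Sdc4+ cells, with a median of 0.06 and none called by limma. Groups did not overlap for 3 genes of this axis on the lower side and 1 on the higher, where 9.26% and 7.2% of all tested genes were. The 2 with the smallest p were both lower without overlap, and that choice itself favours such groups. FGF signalling was not tested. Dusp6, a phosphatase of ERK, ran from 3.93 to 4.79 on the Sdc4+ arrays and from 4.82 to 6.14 on the Sdc4- arrays, a difference of -1.35 (limma adjusted p 0.47). Spry4 differed by -0.82 (limma adjusted p 0.504).

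Megf10, a scavenger-type receptor that works with Notch to keep myoblasts dividing, varied least. It was 1.40 in Myf5SOR+, 1.41 in Cspg4- and 0.97 in CD1 cells of the Sdc4+ group, and 1.54 in B195AP+, 0.83 in Cspg4- and 0.88 in CD1 cells of the Sdc4- group. Cspg4+ cells had 0.84, and its highest level was 1.63-fold its lowest. The difference was 0.18 (SE 0.26), with overlapping groups and an adjusted p of 0.857 in limma. Without the streaked corner, which held the B195AP+ spot, the difference was 0.40 and the groups no longer overlapped. Leaving out 1 array at a time gave 0.0511 (without Cspg4- Sdc4-) to 0.403 (without B195AP+). Of 9 tested genes of the MEGF and Notch list 4 had the higher and 5 the lower mean, with a median of -0.01 and none called by limma. Gulp1, an engulfment adaptor, differed by -0.46 without overlap (limma adjusted p 0.563). Notch3, a Notch receptor also known from mural cells, differed by 1.71 with overlap (limma adjusted p 0.601).

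Cxcr4 and Calcr were not well above background on any array. The Cxcr4 intensity lay between 2.51 and 3.35 on the 6 arrays other than Cspg4+, where the median of 308 negative control spots lay between 2.62 and 3.34. The Calcr intensity lay between 2.47 and 3.45 on the same 6 arrays. Both genes thus read as the negative controls did on these arrays, and no level can be given there. In Cspg4+ cells Calcr read 13.3, above all 308 negative controls, whose highest was 12.9, and Cxcr4 read 8.21, above 98.4% of them. The software did not call either spot well above background, and on each of the other 6 arrays the brightest negative control read 13.9 or more. The probes lie at chr1:130485079-130485138 for Cxcr4 and chr6:3635940-3635999 for Calcr (mm9, both on the minus strand).

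The ligand of CXCR4 was measured although the receptor was not. Cxcl12 ran from 1.94 to 3.17 on the Sdc4+ arrays. It was 2.06 in B195AP+, 0.44 in Cspg4- Sdc4-, 3.05 in CD1 Sdc4- and 0.39 in Cspg4+ cells. The low arrays were 2 of the 3 of the Cspg4-cre line, and the Sdc4 groups overlapped, with a difference of 0.63 (limma adjusted p 0.799) that was -0.08 without Cspg4- Sdc4- cells. Of the 4 tested genes of this axis 3 had the higher mean and 1, Arrb2, an arrestin, the lower at -0.30, and limma called none. Of the 7 tested genes of the calcitonin family 2 had the higher and 5 the lower mean, with a median of -0.26 and none called by limma. Ramp3, a protein that changes which hormones the calcitonin-type receptors bind, ran from 1.49 to 1.97 on the Sdc4+ arrays and from 2.70 to 3.80 on the Sdc4- arrays. Its difference was -1.38 without overlap (limma adjusted p 0.442), and that of Ramp1 was -0.48 (limma adjusted p 0.649).

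The Cspg4-cre line and CD1 each gave 1 Sdc4+ and 1 Sdc4- array, so the markers can be compared within a line, with no replicate and no test. In the Cspg4-cre line Ncam1 differed by -1.04, Cdh15 by -0.50 and Vcam1 by 1.96. Des was not measured in its Sdc4+ cells and was at least 2.42-fold lower there, against the lowest signal well above background on that array. In CD1 Des differed by -3.35, Cdh15 by -1.60 and Ncam1 by -0.36, and Vcam1 by 0.65. These 4 markers kept 1 direction in both lines, and so did Megf10 and Met (Met by 0.10 and 0.29). Most genes did the same, since 41.8% of all tested genes had opposite signs. Markers at least 2-fold lower in Sdc4+ cells numbered 2 of 8 in the Cspg4-cre line (3.9% of all tested genes) and 2 of 8 in CD1 (2.65%), and Des was the only one in both (0.607%). At least 2-fold higher were Vcam1 in the Cspg4-cre line (4.87%) and no marker in CD1 (2%). Megf10 was higher by 0.57 and by 0.09. Itga7 and the tested Fgfr4 probe had opposite signs in the 2 lines, as 41.8% of genes did. The second Fgfr4 probe was lower in Sdc4+ cells in both, by at least 1.34-fold in the Cspg4-cre line, where its Sdc4+ spot was not well above background, and with a difference of -0.17 in CD1.

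**Figure D4:**
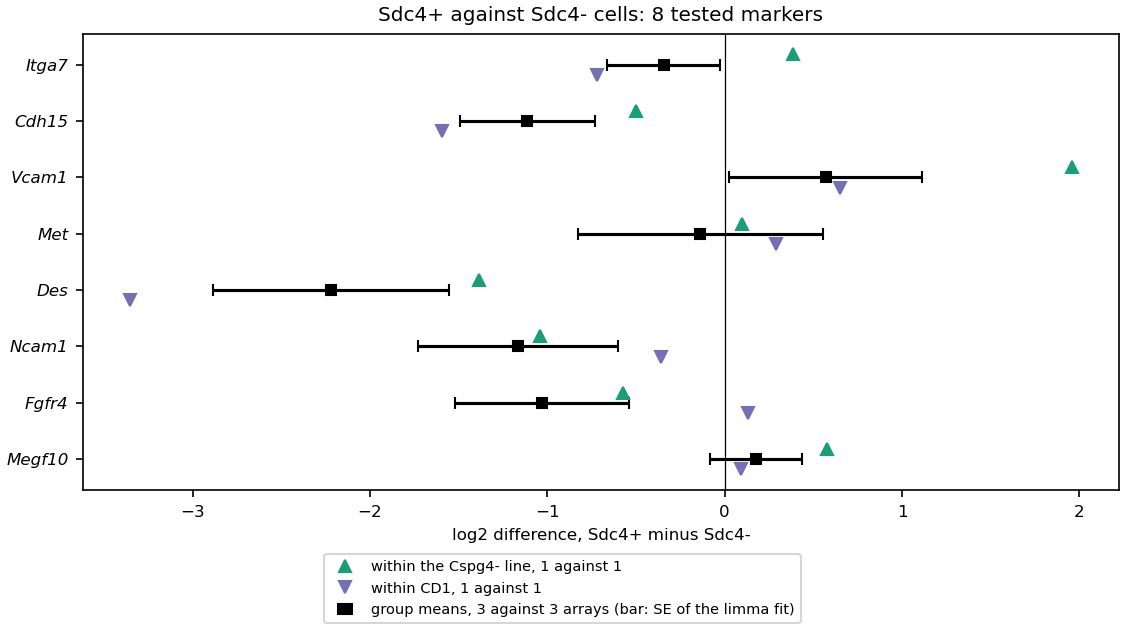
Difference of Sdc4+ minus Sdc4- cells (x axis, log2) for the 8 tested markers (y axis), with squares for group means of 3 arrays each and bars for the SE of the limma fit, and triangles for the differences within the Cspg4-cre line and within CD1. Des, Cdh15 and Ncam1 lie left of 0 by all 3 readings (the Des triangle of the Cspg4-cre line rests on an Sdc4+ value not well above background), Vcam1 and Megf10 right of 0, and Itga7 and Fgfr4 have triangles on both sides.

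The 2 lines can also be set against each other at 1 Sdc4 label, again with no test. CD1 minus Cspg4-cre was 2.15 for Des and 1.30 for Cdh15 among Sdc4- cells. Among Sdc4+ cells it was 0.21 for Cdh15, and for Des no difference is given, since Des was not measured in the Cspg4-cre line. CD1 was thus the higher line in Sdc4- cells for both genes.

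Cspg4+ cells were compared with the average of the Sdc4+ and Sdc4- means, with the lone array assumed to vary like the others. limma called 0 of 8 markers and 0 of 19760 genes (0%), and 1131 genes (5.72%) had an unadjusted p under 0.05, none of them a marker. Fgfr4 was above the range of the other 6 arrays, with a difference of 1.42 (SE 0.65, limma adjusted p 0.956), where 15.1% of genes were above. Vcam1, with a difference of -1.39, and Itga7, with -0.82, were below it, where 10.6% of genes were below (limma adjusted p 1.00 for both). Des differed by 0.75, Met by 0.69, Ncam1 by -0.50, Cdh15 by -0.39 and Megf10 by -0.33, none of them outside the range of the other 6. With the array median in place of the 75th percentile the median of all genes in this comparison moved from 0.04 to -0.74, so small positive differences have no fixed sign. Negative differences grew with that scaling, to -2.17 for Vcam1, -1.61 for Itga7 and -1.12 for Megf10, so their size depends on it as well. With no filter limma called Calcr (a difference of 2.23, adjusted p 0.0117) and Cxcr4 (1.42, adjusted p 0.0445) among 2952 genes of 34947, although neither spot was called well above background.

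From each pathway list the gene with the smallest p in the Cspg4+ comparison was also read, and limma called none. Itga1, a collagen receptor, differed by 1.25, Dusp6 by 1.09, Ramp2, a partner of the adrenomedullin receptor, by 1.11, Gulp1 by 0.74 and Cav1, of caveolae, by 0.44. Negative differences were found for Cxcl12 at -1.78, Cdh4, R-cadherin, at -1.52, Cryab at -1.01 and Hgf, the ligand of MET, at -0.69. Ttn and Madcam1, a ligand of leukocyte integrins, were not well above background in Cspg4+ cells, and no size is given for them. Cspg4 itself was 1.14 in Cspg4+ cells and between -0.58 and 1.90 on the other arrays, so its level did not set the labelled population apart.

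Markers of other cells that carry some of the same surface proteins were read in all 7 populations. Endothelial genes, of cells that can carry VCAM1, were measured for 3 to 5 of 10, with a summed level of 19.4 to 25.7 on the Sdc4+ arrays and 27.7 to 30.0 on the Sdc4- arrays, and 31.0 in Cspg4+ cells. Tek, Tie1, Emcn, Cldn5 and Robo4 were not well above background anywhere. Mural cell genes were measured for 4 or 5 of 8, with sums from 14.0 to 21.99, and Myh11 and Kcnj8 on no array. Myeloid genes summed to between 40.2 and 61.2, with Ptprc and Lyz2 on no array, and lymphocyte genes to between 3.94 and 6.10, with Cd8a and Ms4a1 on none. Keratinocyte genes summed to between 5.60 and 7.88. Fibroblast genes were all 6 measured in 6 populations, and 5 with an unflagged spot in B195AP+ cells, and summed to between 697 and 1198. The median differences were -0.40 over 5 endothelial, 0.18 over 5 mural, 0.25 over 5 myeloid and -0.17 over 4 lymphocyte genes tested. They were -0.14 over 5 keratinocyte, -1.09 over 5 Schwann and 0.03 over 6 fibroblast genes, and limma called 0 in each list. The rule of 3 measured arrays admits genes not measured on any Sdc4+ array, such as Mbp. Over genes measured on all 7 arrays the median was -0.71 for 3 Schwann and -0.17 for 4 mural genes. At an unadjusted p under 0.05 in limma, where 9.18% of all tested genes were, stood 3 Schwann genes and 1 fibroblast gene, all lower. Of 2 lymphocyte genes there, 1 was higher and 1 lower, and 1 myeloid gene was higher. Pecam1 differed by -0.42 (limma adjusted p 0.554), Csf1r of macrophages by 0.72 (0.47), Cd3e of T cells by -0.56 (0.514), Trp63 of keratinocytes by -0.34 (0.682) and Col1a1 of fibroblasts by -0.70 (0.509), all with limma. Mbp of Schwann cells was not measured on any Sdc4+ array and was at least 1.84-fold lower there (limma adjusted p 0.457). The part of such cells in the marker levels was not tested.

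The other satellite cell genes, 6 tested of 11, had 2 higher and 4 lower means with a median of -0.20, and limma called none. Cd82, a tetraspanin of human satellite cells, differed by -0.41 without overlap (limma adjusted p 0.587), and Cd34, a sialomucin of quiescent cells, by -0.82 with overlap (limma adjusted p 0.643).

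Across the 7 arrays the markers did not follow 1 common pattern. Pearson r between pairs of tested markers ran from -0.58 to 0.89, over points that share their array and scaling. Vcam1 and Megf10 were the most alike pair, at 0.89 (0.84 without B195AP+). Cdh15 gave 0.80 with Ncam1 (0.72) and 0.67 with Des (0.82). Des and Megf10 gave -0.58 (-0.74 without B195AP+).

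The genes most like each marker over the 7 arrays were sought among 3555 named genes with an SD of at least 0.5 (3556 for Megf10). Des was most like Lmntd2 (r 0.997) and Pgam2, the muscle phosphoglycerate mutase (0.982). Cdh15 was most like Cyp2s1 (0.95) and Popdc2, a membrane protein of striated muscle (0.939). Vcam1 was most like Gadd45a (0.947) and Ccn2, the matricellular growth factor CTGF (0.944). Ncam1 was most like Kif26b (0.992) and Mns1 (0.981), and Met most like Trim34b (0.944) and Gdpd3 (0.927). Itga7 was most like Nuak1 (0.931) and Lama5, a laminin chain (0.918), Fgfr4 like Siglec1 (0.971) and Nrep (0.969), and Megf10 like Tubb2a, a tubulin (0.971), and Mex3b (0.968). Without B195AP+ each of these 16 values was at least 0.909. The best matches of 7 points among so many genes are high by selection, and they carry no test.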

How the data were processed

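Total RNA was amplified with a low-input kit, per the labels' protocols, which name biotin while the files hold 1 green channel. Per the file headers, the deposited fluorescence intensity of each spot came from Agilent Feature Extraction 11.5.1.1 after background subtraction, and its array medians ran from 9.14 to 21.5. The deposited series table holds log2 values (lumi, per the submitters' processing notes) and served as an alternative.

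Log2 intensity minus each array's 75th percentile over non-control spots was used, with outlier spots left out, spots of a probe averaged and the probe with the highest mean standing for a gene. Groups were fitted over all genes with limma 3.58.1 (R 4.3.3), with Benjamini-Hochberg adjustment at 0.05, tested on simulated data. Probe positions are in mm9 as the files give them, and probe letters come from the files. Promoters are RefSeq's. Members, lists, named genes (by smallest p, 2 per pathway list and 1 per marker list, and 1 per pathway list for Cspg4+ cells; by highest r, 2 genes most like each tested marker) and alternatives were chosen with earlier results of these data known. The 75th percentile over probes measured on all 7 arrays was added after the files were seen.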

Additional observations from a re-analysis of the deposited data

Results flagged for a closer look

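Itga7 and Fgfr4 had differences of opposite sign in the 2 lines that gave both an Sdc4+ and an Sdc4- array. Itga7 was higher by 0.38 in Sdc4+ than in Sdc4- cells in the Cspg4- line and differed by -0.72 in CD1. For Fgfr4 the difference was -0.57 in the Cspg4- line, and it was 0.13 in CD1. This holds for the tested probe A_55_P2120055, and the second probe, A_55_P2121871, was negative in both lines (-1.65, with the Sdc4+ spot not well above background, and -0.17). Each value rests on 1 array a side, the difference between lines was not tested, and 41.8% of all tested genes had opposite signs.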

How the results depend on the processing

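In the Sdc4 comparison limma called none of the 8 tested markers in any of 22 alternatives (smallest adjusted p 0.157, for Des), and the direction was kept by Itga7, Cdh15, Vcam1, Des, Ncam1, Fgfr4 and Megf10 wherever they could be fitted. The Met difference was 0.0232 with normexp, 0.19 with the line as a fixed block and without the Myf5SOR+ and B195AP+ arrays, 0.0203 with the line as a random block and 0.11 with array weights, and ran from -0.77 to 0.42 with 1 array left out. That of Cxcl12 ran from -0.0808 to 1.23 with 1 array left out. limma called 3 genes of the Sdc4 comparison with the line as a random block (consensus correlation 0.576), none of them a marker. For Cspg4+ cells it called 26 genes with that block, 12 in the deposited series table and 2952 with no filter, 2 of them markers. With the array median the Cspg4+ differences were -0.0915 for Met, -0.0308 for Des, -0.0394 for Gulp1 and -0.34 for Cav1. With the fixed block they were 0.14 for Cdh15, -0.45 for Met and 0.20 for Ncam1, and with the random block -0.11 for Met. The cause was not tested. With the fixed block 1 residual degree of freedom remains. Des could not be tested where all 7 arrays had to be above background, and neither could Fgfr4. By replicate number, no paired analysis was possible because the labels give every population the number 1; the line, which 2 Sdc4+ and 2 Sdc4- arrays share, served as the block above. The number of arrays limits the precision, and dim probes (Des, Fgfr4, Cxcr4, Calcr) are limited by signal over background.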
